A study of Arabidopsis thaliana with 4 samples.

Results

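The SnRK2 (SNF1-related protein kinase 2) genes of Arabidopsis, SNRK2.1 to SNRK2.10, were followed in seedlings under salt. The members were taken by their locus, and all 10 were found among the 21729 genes tested. The mutant sahy9-1 carries a T-DNA in an exon of APUM23, a gene for a nucleolar Pumilio protein, and came out of a screen of insertion lines for salt hypersensitivity. It was compared with its Col-0 wild type, in 2 arrays of sahy9-1 and 2 of Col-0, from independent experiments. Whole seedlings of both genotypes were moved to 150 mM NaCl after 10 days of growth and harvested 1 day later, and each RNA was labeled with Cy3 and hybridized to an Agilent array of its own. No array of unsalted seedlings was analysed here, so every value is a level under salt. A single mutant allele was measured, and the study describes mutant seedlings as smaller and shorter-rooted than the wild type. The number of seedlings per RNA sample is not given in the sources used here.

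SnRK2s are plant protein kinases that osmotic stress and the hormone abscisic acid (ABA) switch on. In the core ABA pathway, PYR/PYL/RCAR receptors that have bound ABA hold back the clade A protein phosphatases 2C (PP2Cs), which otherwise keep SnRK2s dephosphorylated and inactive. Freed kinases phosphorylate ABF transcription factors and ion channels. The family has subclass III (SNRK2.2, SNRK2.3 and SNRK2.6), strongly activated by ABA, subclass II (SNRK2.7 and SNRK2.8), weakly activated by it, and subclass I (SNRK2.1, SNRK2.4, SNRK2.5, SNRK2.9 and SNRK2.10), whose members, apart from SNRK2.9, respond to osmotic stress without need of ABA. This activity is set by phosphorylation, which an array of transcripts does not measure.

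The scanner software called 74.6% to 76.3% of gene spots per array well above background and 0 saturated. Arrays of the same genotype correlated at r = 0.995 to 0.996 across genes, and arrays of different genotype at 0.947 to 0.959. Levels are log2 intensities minus that of each array's own 75th percentile, so a negative level is below the percentile and not below background. All changes are sahy9-1 minus Col-0. Levels of different genes come from different probes and were not compared. APUM23 had levels of -3.34 and -3.58 in sahy9-1, against -0.61 and -0.42 in Col-0 (log2 change -2.95, limma adjusted P = 0.00098). All 3 shoot, 6 root and 5 guard-cell markers were well above background on all 4 arrays.

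SnRK2 transcripts changed little and in both directions. SNRK2.7, SNRK2.1, SNRK2.5 and SNRK2.6 fell in sahy9-1, by 1.69-fold, 1.56-fold, 1.43-fold and 1.42-fold, and SNRK2.8 rose 1.30-fold. SNRK2.2, SNRK2.3, SNRK2.4, SNRK2.9 and SNRK2.10 did not pass the test. Thus 5 of 10 members passed an adjusted P of 0.05 in limma, where 49.4% of all genes tested passed it. By direction, 4 members were lower and 1 was higher, against 24% lower and 25.4% higher among all genes. None of the 10 also changed at least 3-fold, as 3.24% of all genes did. For 8 of the 10 members the arrays of the genotypes did not overlap, as was so for 80.3% of all genes. Their median absolute log2 change was 0.27, against 0.28 over all genes tested. The totals that passed and that did not overlap were thus near the background, and with 10 genes the split by direction was not tested. With normexp background correction 0 members passed in limma (5 at an unadjusted p under 0.05), with no signal filter 1, SNRK2.5, and with the methods' t-test after Benjamini-Hochberg adjustment 0 (4 unadjusted). All 10 members were well above background on all 4 arrays.

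**Figure D1:**
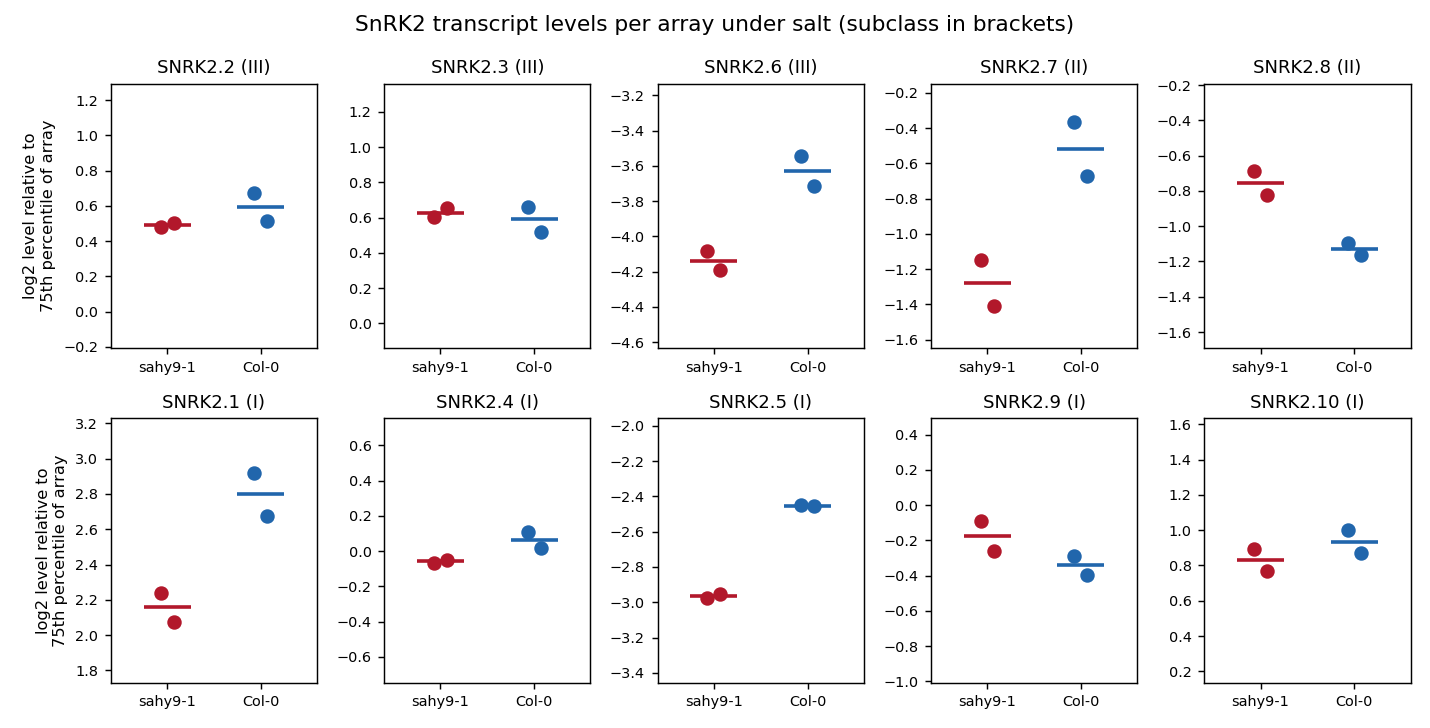
Level of each SnRK2 transcript on each array (log2 intensity minus that of the array's own 75th percentile), sahy9-1 on the left and Col-0 on the right of each panel. Points are the 2 arrays of a genotype and bars their means, and every panel spans the same range of log2 units. The genotypes are clearly apart for SNRK2.6, SNRK2.7, SNRK2.8, SNRK2.1 and SNRK2.5, and overlap for SNRK2.3 and SNRK2.10.

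The subclass strongly activated by ABA was examined first. SNRK2.6 (AT4G33950), also OST1, is the kinase that drives stomatal closure in guard cells. Its levels were -4.08 and -4.19 in sahy9-1, against -3.54 and -3.72 in Col-0, and the genotypes did not overlap. The mean was -4.14 ± 0.077 in sahy9-1 and -3.63 ± 0.12 in Col-0 (SD, n = 2 each), a log2 change of -0.51 (standard error, SE, 0.091, adjusted P = 0.0125 by limma). The spot intensities were 197 and 161 in sahy9-1 and 243 and 206 in Col-0, near the minimum of 100 set for testing. With normexp background correction the log2 change was -0.93 and the limma adjusted P 0.135. The 5 guard-cell markers MYB60, FAMA, HT1, KAT1 and SLAC1 gave summed levels, on the linear scale, of 0.683 and 0.624 in sahy9-1 and 0.635 and 0.616 in Col-0. None of the 5 passed the adjusted P in limma, and their log2 changes ran from -0.016 to 0.31. The highest was that of HT1, which reached the minimum intensity of 100 only in sahy9-1, where it was higher. In whole seedlings, fewer cells of a type and less transcript per cell cannot be told apart.

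SNRK2.2 (AT3G50500) and SNRK2.3 (AT5G66880) are close relatives that act with SNRK2.6 in ABA responses, foremost in seeds and seedlings. SNRK2.2 had levels of 0.48 and 0.50 in sahy9-1, against 0.67 and 0.51 in Col-0. Its lower Col-0 array lay only 0.0107 above the higher mutant array. The log2 change was -0.10 (95% interval -0.32 to 0.11, limma adjusted P = 0.342). For SNRK2.3 the levels were 0.60 and 0.65 in sahy9-1 and 0.66 and 0.52 in Col-0, and the genotypes overlapped. Its log2 change was 0.038 (95% interval -0.17 to 0.25, limma adjusted P = 0.713), and the sign turned to -0.034 without the second Col-0 array. These intervals leave room for changes of at most 1.25-fold down for SNRK2.2 and 1.19-fold up for SNRK2.3. The files give no probe sequences, and whether these probes tell the near-identical members apart was not tested.

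Subclass II moved in both directions. SNRK2.7 (AT4G40010) had the largest change of the family. Its levels were -1.15 and -1.41 in sahy9-1, against -0.37 and -0.67 in Col-0, with a gap of 0.47 between the nearest arrays of the genotypes. The mean was -1.28 ± 0.18 in sahy9-1 and -0.52 ± 0.22 in Col-0 (SD, n = 2 each), a log2 change of -0.76 (SE 0.15, adjusted P = 0.015 by limma). In size this exceeded the changes of 85.2% of the genes tested. The replicates of SNRK2.7 were farther apart than those of any other member in both genotypes. SNRK2.8 (AT1G78290), which is also known to phosphorylate the immune regulator NPR1, went the other way. It had levels of -0.69 and -0.82 in sahy9-1, against -1.10 and -1.16 in Col-0, and both mutant arrays were above both wild-type arrays. The log2 change was 0.37 (SE 0.079, adjusted P = 0.0188 by limma). A second, dimmer probe for SNRK2.8 gave levels of -3.88 and -4.11 in sahy9-1 and -4.50 and -4.59 in Col-0, a log2 change of 0.55 or 1.47-fold. The 95% intervals of SNRK2.7 (-1.14 to -0.37) and SNRK2.8 (0.17 to 0.58) lay on opposite sides of 0.

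In subclass I, 2 of the 5 members passed the test, both lower in sahy9-1. SNRK2.1 (AT5G08590) had levels of 2.24 and 2.08 in sahy9-1, against 2.92 and 2.68 in Col-0. Both mutant arrays were below both wild-type arrays, by at least 0.44. The SD was 0.12 in sahy9-1 and 0.17 in Col-0 (n = 2 each), and the log2 change was -0.64 (SE 0.11, adjusted P = 0.0124 by limma). A second probe for SNRK2.1, well above background on all 4 arrays too, gave -0.63, so both probes of this gene showed nearly the same decrease. SNRK2.5 (AT5G63650) had the tightest replicates among the members that changed. Its levels were -2.97 and -2.95 in sahy9-1, against -2.45 and -2.46 in Col-0, a log2 change of -0.51 (SE 0.061, adjusted P = 0.00513 by limma). SDs were 0.015 in sahy9-1 and 0.0054 in Col-0 (n = 2 each), and the gap between the genotypes was 0.50. An SD from 2 arrays is imprecise, and the median SD of a genotype over all genes tested was 0.063. Kinases of this subclass, SNRK2.1 and SNRK2.5 among them, are known to phosphorylate VARICOSE, an mRNA-decapping factor. VARICOSE itself (VCS) had a log2 change of 0.070 (limma adjusted P = 0.442).

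The other 3 subclass I members did not pass the test. SNRK2.4 (AT1G10940) and SNRK2.10 (AT1G60940), known for roles in root growth under salt, are close relatives. SNRK2.4 had levels of -0.067 and -0.048 in sahy9-1, against 0.11 and 0.017 in Col-0, a log2 change of -0.12 (95% interval -0.30 to 0.059, limma adjusted P = 0.201). Its arrays did not overlap, but the nearest lay 0.065 apart. SNRK2.10 had levels of 0.90 and 0.77 in sahy9-1 and 1.00 and 0.87 in Col-0, which overlapped (log2 change -0.10, 95% interval -0.33 to 0.12, limma adjusted P = 0.364). SNRK2.9 (AT2G23030), the member reported not to be activated by osmotic stress, had levels of -0.090 and -0.26 in sahy9-1 and -0.29 and -0.40 in Col-0. The log2 change of SNRK2.9 was 0.17 (95% interval -0.071 to 0.41, limma adjusted P = 0.184), and its mutant arrays lay 0.029 or more above those of the wild type.

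**Figure D2:**
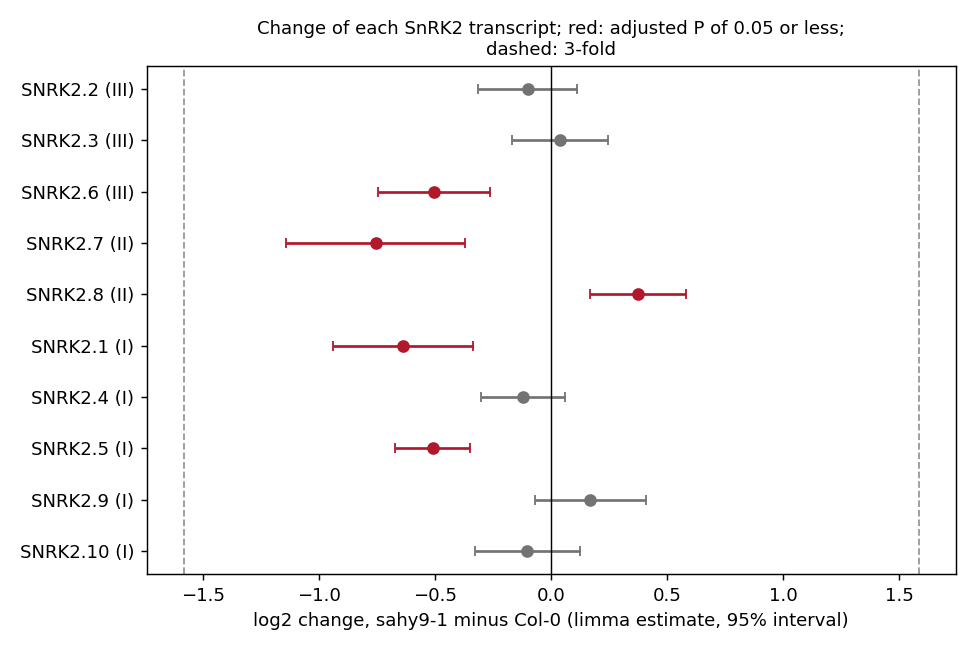
Log2 change of each SnRK2 transcript, sahy9-1 minus Col-0, with its 95% interval from limma, ordered by subclass (in brackets). Red points passed an adjusted P of 0.05, grey points did not, and dashed lines mark a 3-fold change. Every interval lies inside the dashed lines, from -1.14 at the lowest for SNRK2.7 to 0.58 at the highest for SNRK2.8.

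The ABA-activated subclass was set beside the other members. In subclass III, 1 of 3 members passed the adjusted P, and it was lower. In subclasses I and II, 4 of 7 passed, 3 lower and 1 higher. Over all genes tested 49.4% passed, 24% lower and 25.4% higher. The median log2 change was -0.10 in subclass III and -0.12 in the other subclasses, against -0.0041 over all genes tested. These medians differed by 0.0191. With so few genes the subclasses were described and not tested against each other. In this fit even the largest interval of a member excluded a 3-fold change, the threshold the methods set for differential expression. All members but SNRK2.7 had intervals inside a 2-fold change. Intervals under other settings are not given, and with normexp SNRK2.6 had a log2 change of -0.93 (limma adjusted P = 0.135).

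The calls of the 5 members also depended on single arrays. Without the second sahy9-1 array only SNRK2.5 passed, without the first SNRK2.1, SNRK2.5 and SNRK2.7 passed, and without the second Col-0 array SNRK2.8 was lost.

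**Figure D3:**
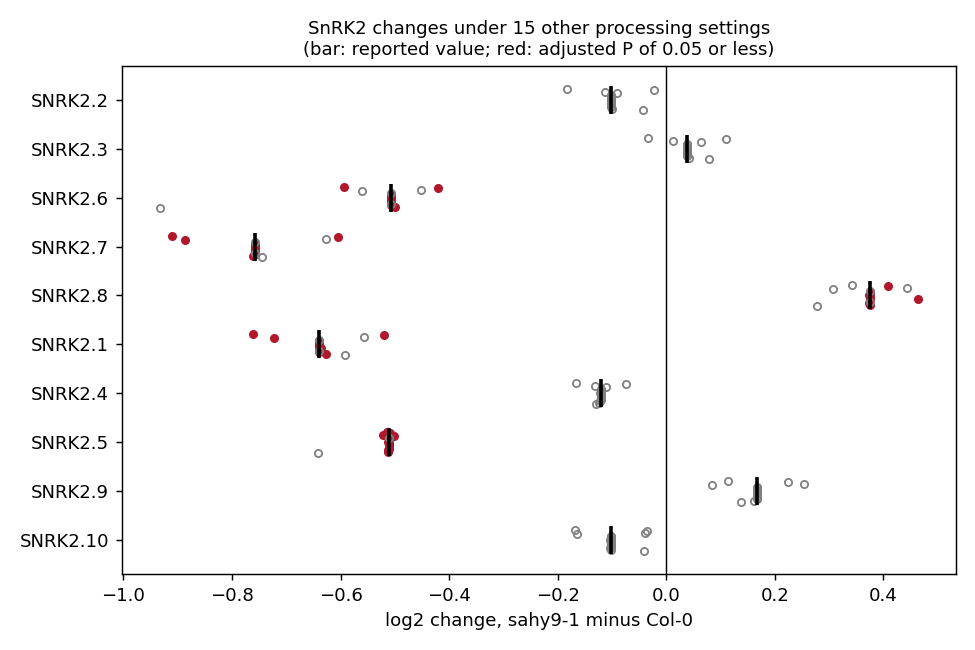
Log2 change of each SnRK2 transcript, sahy9-1 minus Col-0, under 15 other settings of the processing (points, red where the adjusted P was 0.05 or less) beside the value given in the text (black bar). SNRK2.3 is the only member whose points lie on both sides of 0, from -0.034 to 0.11, and SNRK2.6 has a single point at -0.93.

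The partners of the kinases were read from the same fit. PP2Cs, the inhibitors that bind and dephosphorylate SnRK2s, all fell, 9 of 9 at the adjusted P, where 24% of all genes did so. A decrease of 3-fold or more was seen for 5 PP2Cs, where 3.24% of all genes passed with such a change in either direction. The median log2 change of the PP2Cs was -1.75. In limma 9 of 9 also passed with normexp and with no signal filter. With the methods' t-test and adjustment, as run here, 0 passed, as in each list below. The study itself, which names that test with a 3-fold limit, lists ABI2, PP2CA, HAI1, HAI2 and AHG1 as lower in the mutant. Among the PP2Cs AHG1 (AT5G51760) had mean levels of -5.39 in sahy9-1 and -2.87 in Col-0 (log2 change -2.52, limma adjusted P = 0.00365). HAI1 changed by -2.27 and HAI2 by -2.21. AHG1 had intensities of 89.6 and 62.3 in sahy9-1, against 478 and 302 in Col-0, so it reached the minimum of 100 only in Col-0, where it was high, though all 4 were well above background. Of 14 receptor genes 9 had enough signal to be tested, and 6 rose, 2 fell and 1 did not pass, where 25.4% of all genes rose and 24% fell. PYL6 (AT2G40330) rose by a log2 change of 1.62 (limma adjusted P = 0.0114), PYL4 by 1.08 and PYL8 by 0.95. The lower ones were PYL9, at -0.45, and PYL7, at -0.30. In place of 8 receptors, 1 passed with normexp and 4 with no signal filter, and 3 without the first sahy9-1 array, 2 without the second and 5 without the first Col-0 array. The median log2 change of the receptors tested was 0.60, and that of the SnRK2 genes -0.11.

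Genes acting downstream of the SnRK2s were tested for all 10 on the list, and 5 fell, 1 rose and 4 did not pass. The 6 of 10 that passed stood against 49.4% of all genes, and by direction 24% of all genes fell and 25.4% rose. With normexp 3 passed. The largest decrease was that of AKS1 (AT1G51140), a transcription factor of guard cells that SnRK2s phosphorylate, with a log2 change of -1.47 (limma adjusted P = 0.00547). ABF2 and ABF3, main transcription factors of ABA-responsive genes, fell by 1.12 and 0.89 on the log2 scale. ABF1 fell by 0.56, and ABF4 had a log2 change of -0.26 with a limma adjusted P of 0.0501. ABI5 was the gene that rose, by 0.62. RBOHF, an NADPH oxidase, fell by 0.37. The ion channel genes SLAC1 and KAT1, also counted among the guard-cell markers, had log2 changes of 0.023 and -0.016 (limma adjusted P = 0.906 and 0.919).

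Raf-like kinases phosphorylate and activate SnRK2s. Of 13 loci listed for these, 11 were tested, 3 fell, 0 rose and 8 did not pass, with log2 changes from -1.38 to 0.27. The 3 of 11 that passed stood against 49.4% of all genes, and 24% of all genes fell. With normexp 2 passed, and with no signal filter 3. The 3 that fell were the loci AT5G57610, at -1.38, AT3G24715, at -0.78, and AT4G24480, at -0.64. The annotation used here names only 3 of the 13. RAF10 had a log2 change of -0.12, RAF11 one of -0.063 and SIS8 one of -0.0014, with limma adjusted P of 0.183, 0.453 and 0.99. The median over the list was -0.063.

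SnRK2s belong to a larger family with SnRK1, kinases of energy shortage, and SnRK3, the CIPKs, which calcium sensors of the CBL type regulate. Of 29 such genes 28 were tested, and 14 fell, 1 rose and 13 did not pass, with a median log2 change of -0.27. The 15 that passed stood against 49.4% of all genes, and by direction 24% of all genes fell and 25.4% rose. With normexp 5 passed, and with no signal filter 8. In SnRK1, KIN10 fell (log2 change -0.31, limma adjusted P = 0.0379), and KIN11 had a log2 change of -0.059. In SnRK3, 13 of 26 fell and 1 rose. CIPK5 (AT5G10930) had the largest change, with mean levels of -0.65 in sahy9-1 and 1.34 in Col-0 (log2 change -2.00, limma adjusted P = 0.0038), and was the only one past 3-fold. CIPK25 and CIPK14 fell by 1.03 and 1.02, and CIPK13 rose by 0.69. SOS2, the CIPK of the salt overly sensitive pathway, had a log2 change of 0.055 (limma adjusted P = 0.515). Without either sahy9-1 array 8 of these 28 genes passed in place of 15.

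**Figure D4:**
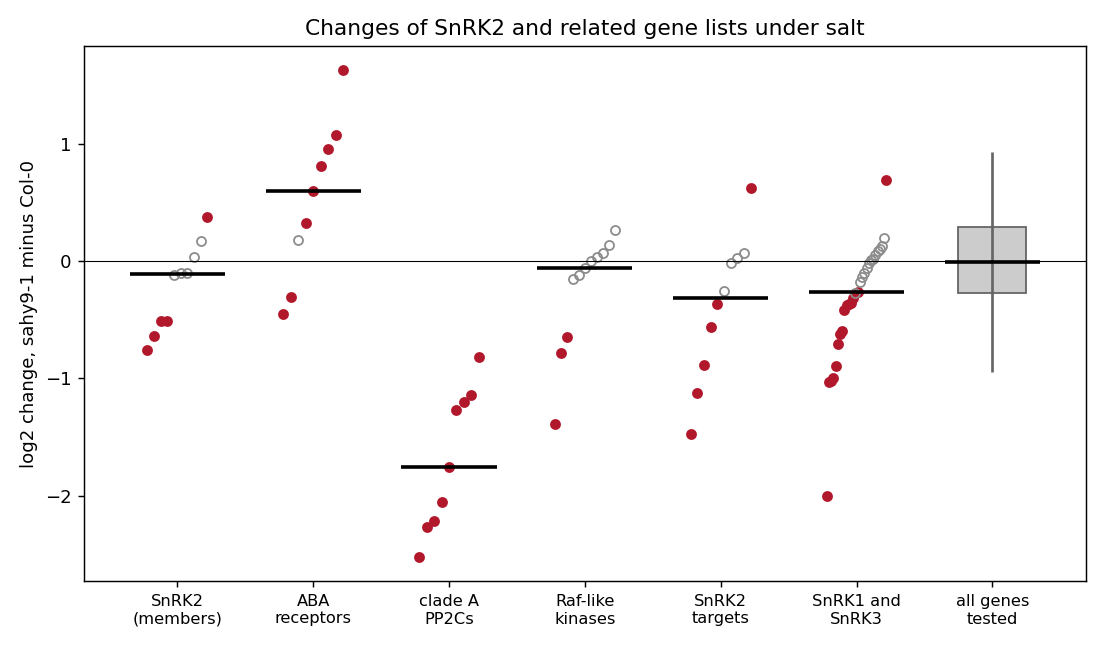
Log2 change, sahy9-1 minus Col-0, of each tested gene of the SnRK2 family, the ABA receptors, the clade A PP2Cs, the Raf-like kinases, the SnRK2 targets and the SnRK1 and SnRK3 genes. Red points passed an adjusted P of 0.05, open points did not, and black bars are medians. The box for all genes tested spans the 25th to 75th percentile and its line the 5th to 95th. The PP2C points all lie below -0.8 while every SnRK2 point lies between -0.76 and 0.37.

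Among the shoot markers 1 of 3 passed the test and among the root markers 2 of 6, where 49.4% of all genes passed. The 3 shoot markers gave summed levels on the linear scale of 141 and 152 in sahy9-1 and 162 and 172 in Col-0. LHCB2.1 fell by 0.72 on the log2 scale (limma adjusted P = 0.00684). RBCS1A and LHCB1.1 did not pass (log2 changes -0.15 and -0.22, limma adjusted P = 0.140 and 0.105). For the 6 root markers the sums were 2.18 and 2.14 in sahy9-1 and 2.27 and 2.14 in Col-0, and 2 of the 6 passed the test, PLT1 (log2 change -0.49) and PLT2 (-0.28), both lower. PLT1 reached the minimum intensity of 100 only in Col-0. The other 4 did not pass, with SCR at 0.16. In these sums, and in that of the guard-cell markers, the brightest genes count most. LHCB2.1, PLT1 and PLT2 thus add little to them. The part of the markers in the changes of the SnRK2 transcripts was not tested.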

How the data were processed

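The authors scanned 1-color arrays and deposited the background-subtracted spot intensities that Agilent Feature Extraction 10.7.1.1 wrote, with a table of log2 values. In that deposited table each array was scaled to its 75th percentile and each probe set to the Col-0 mean, to within 0.00068 (34207 genes with 1 spot). The methods name MAS 5.0 for normalization. Here log2 intensity minus the 75th percentile of the array was used, without control and outlier spots, and the brightest probe stood for each gene. Probes were matched by accession to loci of TAIR10.1, for 26309 of 35137 transcripts. A transcript without a locus was kept under its accession and counted as a gene, so the 21729 genes tested include such transcripts. Genes reaching an intensity of 100 on both arrays of either genotype were tested as unpaired groups in limma 3.58.1 (R 4.3.3), with Benjamini-Hochberg adjustment over all 21729. The precision is limited by 2 arrays per genotype. The code was tested on simulated arrays. For the other lists, the up to 3 largest changes past the adjusted P were named. Of the Raf-like kinases, those the annotation names were given too. Further genes were named after their values were seen. The members and lists were chosen with earlier results of these data known. The array design refers to an older genome build, and no coordinates or sequences are given.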

Additional observations from a re-analysis of the deposited data

How the results depend on the processing

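Of 150 values of the 10 members under 15 other settings, 128 kept their direction and their side of the adjusted P, 21 kept only the direction, and 1 changed sign (SNRK2.3, -0.034 without the second and 0.11 without the first Col-0 array). All 21 were lost calls of the 5 members that passed in the results above. The signal filters, the intensity trend, the replicate block and the t-test left each log2 change as it was, so direction could not turn there. With normexp background correction, which added an offset of 50, 0 members passed in limma (5 at an unadjusted p under 0.05). Of all genes 2754 then passed, with 324 past 3-fold and 20 of the genes of the other lists. In the results above these were 5, 10735, 705 and 41. With no signal filter 1 member and 6572 genes passed, with more genes under adjustment. With the methods' t-test and Benjamini-Hochberg adjustment 0 members passed (4 unadjusted), with 93 genes, 15 past 3-fold and 0 of the other lists. Normexp was run on median spot and background signals and not on the background-subtracted intensities used above, so both changed together. The cause of the normexp and t-test differences was not tested. Leaving out 1 array at a time gave 1 to 5 members, 4812 to 10085 genes, 597 to 852 past 3-fold, 26 to 38 of the other lists and a difference between subclass medians of -0.0136 to 0.073. With the replicate number as a block 5 members and 11907 genes passed, and deviations of the same-numbered arrays correlated at 0.438, while nothing in the labels says that a number marks a shared experiment. Scaling by the median or by quantiles, the filter on raw signal, the mean over probes, kept outlier spots, the intensity trend and the authors' table gave 5 members each, the same genes.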

Other observations

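The genes beside the members were read after their values were seen. Among the genes tested, SNRK2.4 lies next to RECQ4A and SNRK2.10 next to RECQ4B, a pair of DNA helicase genes, and the log2 changes of these neighbors were 0.067 and -0.19. Next to SNRK2.1, which fell, AT5G08600 had a log2 change of 1.85, and next to SNRK2.7, which fell too, AT4G40020 had one of 1.99. Over the neighbors on both sides of the 10 members the log2 changes ran from -0.85 to 1.99, with PDF2.5, next to SNRK2.5, the lowest. The median of the neighbors was -0.037, against -0.0041 over all genes tested.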
